A study of Mus musculus with 24 samples.

Results

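The lens crystallins and the genes of the lens fibre cell are described here in whole mouse eyes kept under summer-like and winter-like conditions. The set holds 33 genes of the 19018 in the deposited table, chosen by gene symbol: 2 alpha crystallins, 6 beta crystallins, 8 gamma crystallins, 5 genes of the fibre membrane and cytoskeleton, 6 other fibre proteins and 6 transcription factors of the lens. All 33 had values and were tested. Male CBA/N mice, 10 weeks old at the start, were kept for 4 weeks under LW (long day and warm: 16 h light and 8 h dark, 27 °C) or under SC (short day and cool: 8 h light and 16 h dark, 10 °C). Whole eyes were taken every 4 h from 2 h to 22 h after midnight, 2 at each of the 6 times under each condition, which gave 12 LW eyes and 12 SC eyes. At 6 and 18 h the lights were on under LW only, at 10 and 14 h they were on under both conditions and at 2 and 22 h they were off under both. Photoperiod and temperature changed together between these groups and cannot be told apart. No source says whether the 2 eyes of a group are from separate mice, and p-values therefore cover the spread between eyes, which may be technical.

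The lens is a transparent body made of an epithelial layer in front and a mass of elongated fibre cells behind, and fibre cells fill themselves with crystallins while they lose their nuclei and organelles. Alpha crystallins are small heat shock proteins that act as chaperones, and beta and gamma crystallins form a common family of compact proteins that give the lens its refractive index. Gamma crystallins are made mainly as fibres differentiate, and most of their genes lie together in a cluster. Fibre cells also carry a water channel, gap junctions and a cytoskeleton of beaded filaments that few other cells have, and their genes are driven by factors such as MAF, SOX1, PROX1, PITX3 and HSF4.

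The eyes carried abundant lens RNA. Summed over the 16 crystallins, 4.83% ± 0.243 of a library came from these genes in LW eyes and 4.41% ± 0.275 in SC eyes (SD, n = 12 each). On a scale of scaled counts per kilobase of transcript, the most abundant were Crybb2, with 370674 under LW and 376350 under SC, and Cryaa, with 300134 under LW and 260611 under SC. Cryba1 (118646 under LW and 107255 under SC) and Crygb (112889 under LW and 91956 under SC) followed, and the least abundant crystallins were Crygn (280 under LW and 227 under SC) and Crygf (167 under LW and 95.3 under SC). A scaled count is the deposited expected count brought to a common library size with TMM factors, and it is the unit of every level below unless a share or a level per kilobase is named.

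The genes of Cryga to Crygf are close copies of each other, which bears on how their reads were assigned. Cryga, Crygb, Crygc, Crygd and Cryge lie on chromosome 1 between 65048555 and 65103363 (GRCm38.p6), and Crygf lies apart from them at chr1:65926522-65928311. Their mRNAs were between 78.0% (Crygc and Crygf) and 96.2% (Cryge and Crygf) identical in pairwise alignments, and Crygd was 91.4% identical to Cryge. Of all stretches of 100 bases in the Cryge transcript, 27.1% occur letter for letter in Crygd or Crygf, and the shares were 22.8% for Crygb (in Crygc), 17.8% for Crygc (in Crygb), 15.8% for Crygd (in Cryge) and 11.9% for Crygf (in Cryge). For Cryga, 47.7% occur in an overlapping gene model named Gm28845. The split of reads between Crygb and Crygc and among Crygd, Cryge and Crygf is therefore uncertain. So is that between Cryga and Gm28845 if the authors' reference held this gene model, which was not checked. The shares are for single stretches, and pairs of reads were not looked at. The sum of the 6 genes is given beside the single values, and it does not cover Gm28845. None of the other 27 members shared such a stretch with another gene. The stretches of 100 bases just before the listed start of each of the 6 genes are shown here because the 6 genes are such close copies and the levels of most of them moved together. In each, TTTGTG and TATATA are in capitals, read 5′ to 3′ on the strand of the gene.
Cryga: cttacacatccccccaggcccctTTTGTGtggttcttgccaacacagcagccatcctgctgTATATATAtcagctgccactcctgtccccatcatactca
Crygb: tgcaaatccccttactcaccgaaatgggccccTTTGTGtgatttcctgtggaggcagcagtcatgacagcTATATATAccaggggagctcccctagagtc
Crygc: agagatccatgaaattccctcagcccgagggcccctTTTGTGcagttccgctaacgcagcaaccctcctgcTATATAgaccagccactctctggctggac
Crygd: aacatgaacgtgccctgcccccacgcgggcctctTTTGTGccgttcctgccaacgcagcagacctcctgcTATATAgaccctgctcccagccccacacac
Cryge: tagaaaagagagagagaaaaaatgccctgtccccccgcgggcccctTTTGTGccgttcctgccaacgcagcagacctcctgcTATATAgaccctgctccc
Crygf: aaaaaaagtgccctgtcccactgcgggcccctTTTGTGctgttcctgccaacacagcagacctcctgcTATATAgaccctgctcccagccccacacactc
The sequences are from RefSeq (GRCm38.p6), at chr1:65103364-65103463, chr1:65082291-65082390, chr1:65073533-65073632, chr1:65063441-65063540 and chr1:65051164-65051263 on the minus strand and chr1:65926422-65926521 on the plus strand.

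Both motifs were chosen after the 6 sequences had been seen, and they are a description. TTTGTG or its reverse complement CACAAA was found in the 100 bases before the start of 7 of the 30 members with a promoter sequence (the 6 genes above and Crybb1) and of 6.06% of all 27025 genes with one. TATATA, which is its own reverse complement, was found there in 9 of the 30 members (the 6 genes above, Cryaa, Crygn and Prox1) and in 2.38% of all genes. The core of the MAF recognition site, TGCTGA on either strand, was found between 250 bases before and 50 bases after the start in 15 of the 30 members and in 19.1% of all genes. The 15 were Cryaa, Cryba1, Cryba2, Cryba4, Crybb1, Crybb3, Cryga, Crygc, Crygs, Crygn, Mip, Lim2, Bfsp1, Lgsn and Lctl. A pair of facing heat shock elements, GAANNTTC, was found in 1 of the 30 members (Dnase2b) and in 7.95% of all genes. In the 120 bases before the start of Cryaa, TGCTGA and TATATA are in capitals.
Cryaa: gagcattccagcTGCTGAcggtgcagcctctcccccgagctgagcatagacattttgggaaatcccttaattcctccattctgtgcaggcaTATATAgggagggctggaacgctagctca
This sequence is from RefSeq (GRCm38.p6, chr17:31677811-31677930, plus strand).

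Over all 6 times, 17 of the 33 genes were higher under LW, 1 was lower and 15 were not called, at an adjusted p under 0.05 from limma. Of all 18233 genes tested, 4.84% were higher under LW and 4.65% lower. The median log2 difference, LW minus SC, was 0.15 over the members and -0.00041 over all genes tested, and 27 of the 33 members had a positive sign. The alpha and gamma crystallins made up 8 of the 17, with both alpha crystallins and 6 of 8 gamma crystallins higher under LW, whereas 2 of 6 beta crystallins were. Mip, Bfsp1, Lgsn, Grifin, Birc7, Tdrd7 and Foxe3 were also higher, and Bfsp2 was the gene that was lower. In whole eyes, a smaller lens or fewer lens cells and less RNA per cell cannot be told apart.

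**Figure D1:**
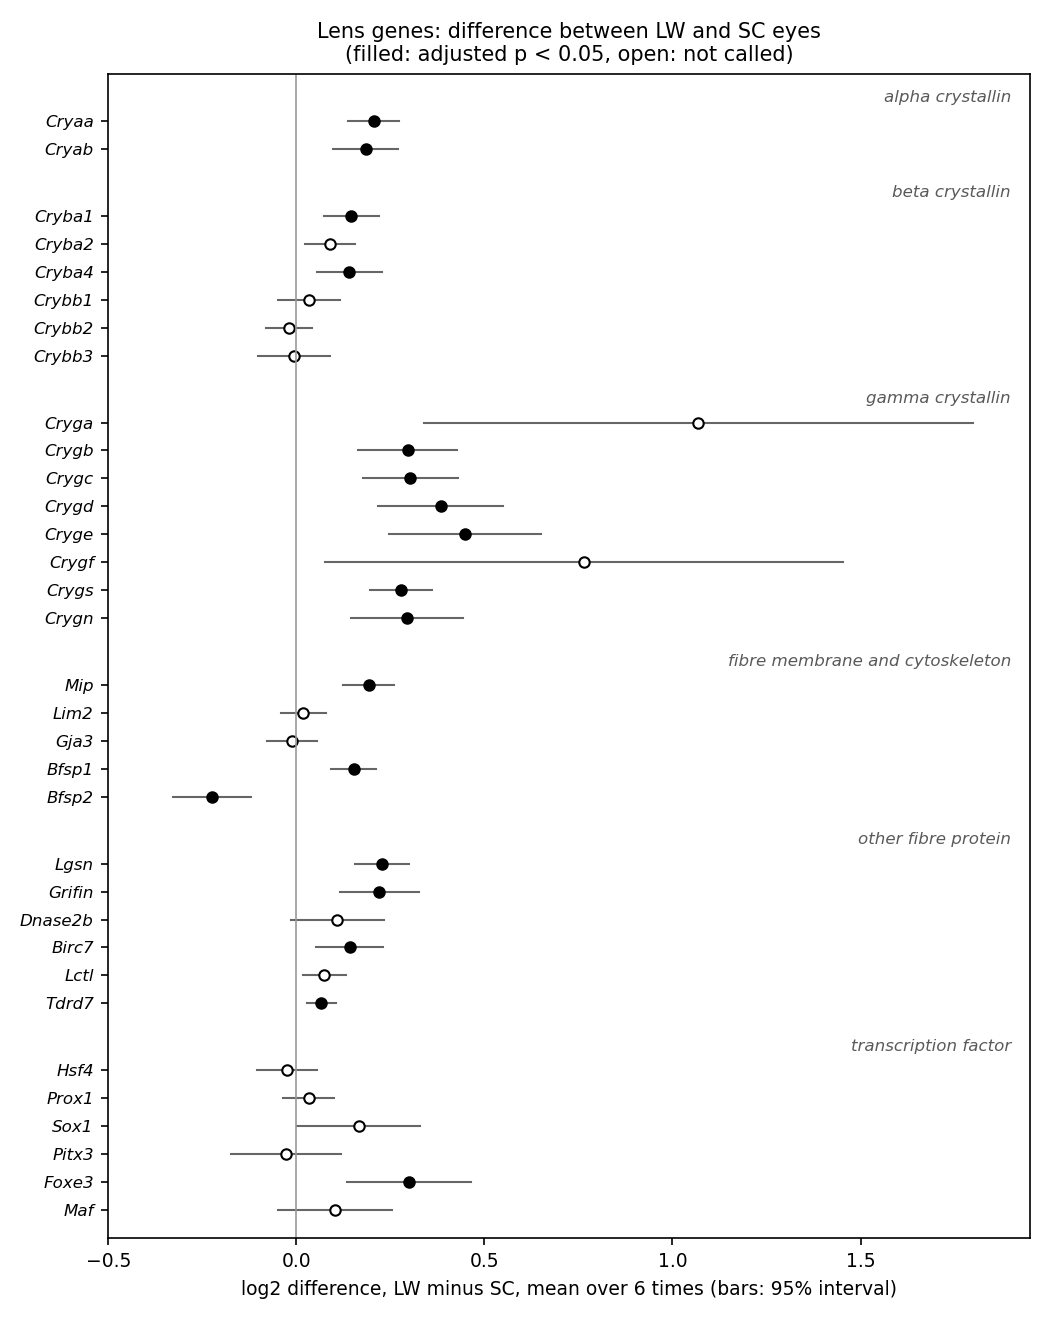
The log2 difference between LW and SC eyes (x axis, LW minus SC, mean over 6 times, with its 95% interval) is plotted for each of the 33 lens genes, with filled points for the 18 genes called by limma and open points for the other 15. The alpha crystallins and most gamma crystallins lie to the right of 0, Crybb1, Crybb2 and Crybb3 lie near 0, Cryga and Crygf have wide intervals, and Bfsp2 lies to the left.

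Cryaa, which encodes alpha A crystallin (chr17:31677931-31681730), was higher under LW. Its scaled count was 358116 in the lowest, 378030 in the median and 412893 in the highest LW eye, against 304886, 329060 and 378742 in SC eyes. The ranges overlapped, with 6 LW eyes above every SC eye and 10 SC eyes below every LW eye. The log2 difference was 0.21 (95% interval 0.14 to 0.27, adjusted p = 0.000469 from limma), and LW was higher at 6 of 6 times. Cryab, which encodes alpha B crystallin and is also made in retina, muscle and other tissues, had 50644, 55440 and 60304 in the lowest, median and highest LW eye, against 44421, 47638 and 55472 in SC eyes. Here too 6 LW eyes lay above every SC eye. Its log2 difference was 0.18 (0.10 to 0.27, adjusted p = 0.00975 from limma). The ratio of Cryab to Cryaa within an eye was 14.5% under LW and 14.7% under SC. The log2 ratio differed by -0.021 (two-sided exact permutation test within times, p = 0.117). Without LW 6 h replicate 1 the difference was -0.029 (exact permutation p = 0.00990).

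The beta crystallins parted into those that were higher under LW and those that were not called. Cryba1, which encodes the abundant beta A3/A1 crystallin, had 85170, 90667 and 104027 in the lowest, median and highest LW eye, against 73738, 82577 and 98138 in SC eyes, so the ranges overlapped. Its log2 difference was 0.15 (0.07 to 0.22, adjusted p = 0.014 from limma), and without the eyes of 6 h it was 0.12 (adjusted p = 0.0916). Cryba4 averaged 21245 ± 1278 under LW and 19302 ± 1629 under SC (SD, n = 12 each), with a log2 difference of 0.14 (adjusted p = 0.0414 from limma). This call is close to the threshold: it was lost when any of 14 of the 24 eyes was left out (replicate 1 of each of the 6 LW times, replicate 2 of LW 2 and 22 h, replicate 1 of SC 10, 18 and 22 h and replicate 2 of SC 2, 6 and 10 h), with adjusted p between 0.0521 and 0.0851. It was also lost without the eyes of 6, 10, 18 or 22 h (0.067 to 0.146), without SC 6 h replicate 2 and SC 10 h replicate 2, which also held liver transcripts (0.0922), and with limma voom (0.0521). Cryba2 had a log2 difference of 0.09 (0.02 to 0.16, adjusted p = 0.0861 from limma) and was not called. Without SC 2 h replicate 1, SC 14 h replicate 1 or LW 18 h replicate 2 it was called, with adjusted p of 0.0400, 0.0431 and 0.0317.

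Crybb1, Crybb2 and Crybb3, the basic beta crystallins, were not called, and their intervals leave little room for a difference of the size seen in the alpha and gamma genes. Crybb2, the most abundant transcript of the set per kilobase, had 311938, 336661 and 362093 in the lowest, median and highest LW eye, against 295833, 345714 and 371182 in SC eyes. The LW range lay inside the SC range. Its log2 difference was -0.02, with a 95% interval of -0.08 to 0.04 (adjusted p = 0.733 from limma). Crybb1 differed by 0.03 (-0.05 to 0.12) and Crybb3 by -0.01 (-0.10 to 0.09). These 3 genes and Cryba4 lie on chromosome 5 as 2 pairs (GRCm38.p6). Cryba4 and Crybb1, whose annotated spans overlap, lie between 112246492 and 112269585. Crybb2 and Crybb3 lie apart from them, between 113058258 and 113082236.

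Among the gamma crystallins, Crygs gave the lowest p. It encodes gamma S crystallin, the gamma crystallin of the adult lens cortex, and lies on chromosome 16, outside the cluster. Its scaled count was 47904, 51252 and 57408 in the lowest, median and highest LW eye, against 39260, 41950 and 49133 in SC eyes. The groups overlapped only through SC 2 h replicate 1, at 49133, and the 3 LW eyes below it. The log2 difference was 0.28 (0.20 to 0.36, adjusted p = 0.000273 from limma). Crygn, which lies between the beta and gamma crystallins in sequence, was far less abundant, with 160, 224 and 269 in LW eyes against 145, 173 and 207 in SC eyes. It was also higher under LW (log2 difference 0.29, 0.14 to 0.44, adjusted p = 0.0123).

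The clustered genes Crygb, Crygc, Crygd and Cryge were all higher under LW. Crygd had 26750, 32106 and 38968 in the lowest, median and highest LW eye, against 21950, 23964 and 35303 in SC eyes. The highest SC eye was again SC 2 h replicate 1. It lay above 9 of the 12 LW eyes, and 10 SC eyes lay below every LW eye. The log2 difference of Crygd was 0.38 (0.22 to 0.55, adjusted p = 0.00833 from limma), and those of Crygb, Crygc and Cryge were 0.30, 0.30 and 0.45 (adjusted p = 0.00907, 0.00627 and 0.0107). Each of the 4 was higher under LW at 6 of 6 times. Cryga to Crygf summed, which does not depend on how reads were divided among them, came to 154245 ± 16041 under LW and 122865 ± 14625 under SC (SD, n = 12 each), a log2 difference of 0.33.

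Cryga and Crygf had the 2 highest fitted differences of the set and were not called. Cryga was at 555, 998 and 1618 in the lowest, median and highest LW eye, against 153, 450 and 1146 in SC eyes. At some times the 2 eyes differed widely, under both conditions: under LW at 2 h they had 679 and 1618, and under SC at 14 h 1088 and 240. The log2 difference was 1.07 with an interval of 0.34 to 1.80 (adjusted p = 0.0674 from limma). Without SC 2 h replicate 1 it was 1.26 (adjusted p = 0.031), and without SC 14 h replicate 1 it was 1.25 (adjusted p = 0.0322). Crygf was at 31.6, 99.3 and 192 in LW eyes against 23.1, 55.3 and 126 in SC eyes (log2 difference 0.76, 0.07 to 1.45, adjusted p = 0.155), and without LW 10 h replicate 2 it was 0.97 (adjusted p = 0.0404).

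**Figure D2:**
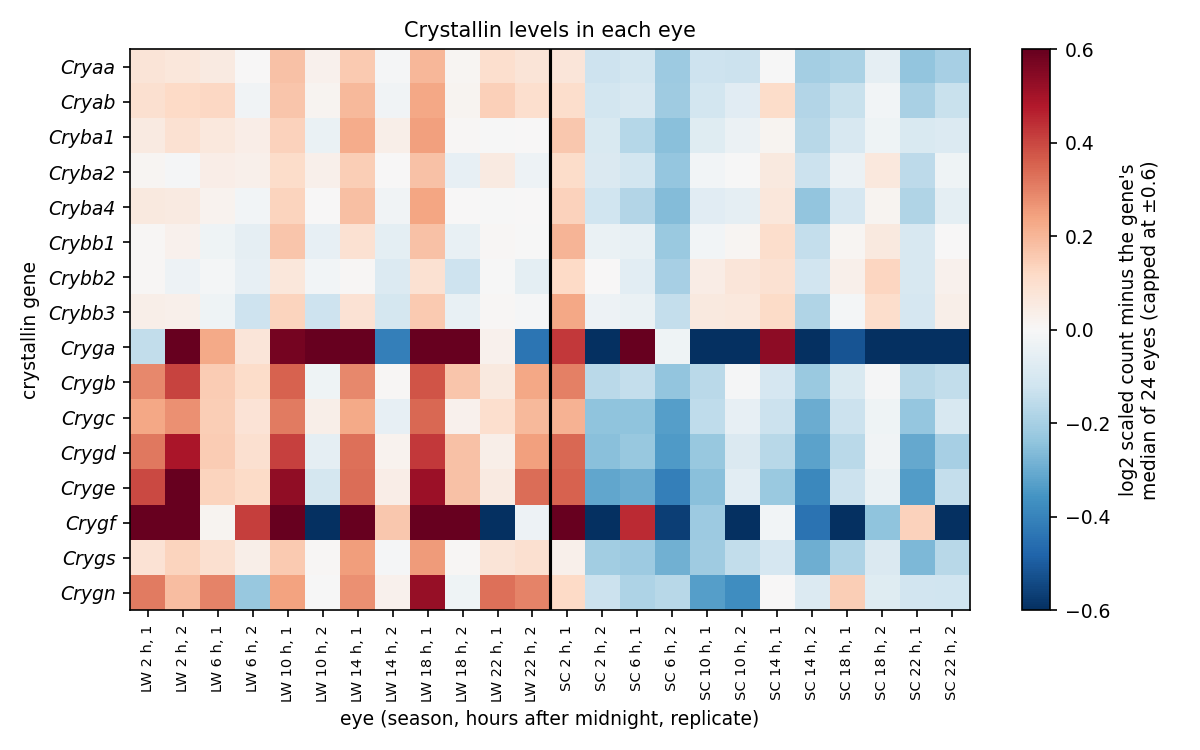
Each cell shows the log2 scaled count of a crystallin (rows) in an eye (columns, the 12 LW eyes left of the 12 SC eyes) minus the median of that gene over all 24 eyes, in red above and blue below the median, capped at 0.6 in either direction. In LW columns 7 to 16 of the 16 crystallins lie above their medians (7 in LW 10 h and LW 14 h replicate 2) and in SC columns 0 to 5, except 16 in SC 2 h replicate 1 and 9 in SC 14 h replicate 1, and in the rows of Crybb1, Crybb2 and Crybb3 the sides look alike.

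The crystallins of an eye moved together. In LW eyes, between 7 and 16 of the 16 crystallins lay above their own median of all 24 eyes. In 10 of the 12 SC eyes, between 0 and 5 did. The other SC eyes were SC 2 h replicate 1, in which 16 of 16 lay above the median, and SC 14 h replicate 1, with 9 of 16. The other eye of each of these times stood at the opposite end, with 1 and 0 of 16. Without SC 2 h replicate 1, 20 members were called higher under LW in place of 17. Of all genes, 703 were, in place of 883.

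Within an eye, the summed alpha and summed gamma crystallins were higher relative to the summed beta crystallins under LW. The scaling of libraries does not enter such a ratio, and the part of the amount of lens was not tested. Crybb2 weighs most in the beta sum and Cryaa in the alpha sum. The log2 ratio of Cryaa to Crybb1, Crybb2 and Crybb3 was higher under LW by 0.17, 0.22 and 0.21. Its ratio to Cryba1, Cryba2 and Cryba4 was higher by 0.06, 0.12 and 0.06, without separation in every eye. The alpha crystallins made up 1.79% ± 0.0855 of a library under LW and 1.56% ± 0.0959 under SC, the gamma crystallins 0.850% ± 0.0758 under LW and 0.684% ± 0.0671 under SC, and the beta crystallins 2.19% ± 0.0978 under LW and 2.16% ± 0.133 under SC (SD, n = 12 each). The log2 ratio of summed alpha to summed beta crystallins lay between -0.33 and -0.24 in LW eyes (mean -0.29) and between -0.55 and -0.36 in SC eyes (mean -0.46). All 12 LW eyes lay above all 12 SC eyes. The log2 ratio of gamma to beta crystallins averaged -1.37 under LW and -1.66 under SC, and 9 LW eyes lay above every SC eye. The exception was SC 2 h replicate 1, at -1.44, while the other 11 SC eyes lay below every LW eye. The ratio of gamma to alpha crystallins overlapped more widely (mean -1.08 under LW and -1.20 under SC, with 3 LW eyes above every SC eye). The class ratios were chosen with the single genes known and are given without a test. How often ratios of other genes separate was not measured.

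Among the 120 pairs of crystallins, the ratio of 15 pairs separated LW from SC in every eye. Of the 15, 13 held Crybb1, Crybb2 or Crybb3 as a partner, as 42 of the 120 pairs do. These 3 genes were set apart with their own differences, near 0 in the same eyes, already known. The count therefore restates the values of the single genes and adds no support to them. The pairs share genes, and how often ratios of other genes separate was not measured. The log2 ratio of Cryaa to Crybb2, the 2 most abundant crystallin transcripts per kilobase, was 0.12, 0.18 and 0.23 in the lowest, median and highest LW eye, against -0.14, -0.05 and 0.07 in SC eyes. No single member was separated in every eye. Of all genes tested, 0.0768% were. The study asked that the lowest level over the times under 1 condition exceed the highest under the other, without naming a scale or how the 2 eyes of a time enter. Applied here to the means of 2 eyes in scaled counts, this separated 12 members with LW above SC. In unscaled expected counts it separated 7, and the share of all genes on that scale was not measured. The 12 were Cryaa, Cryab, Crygb, Crygc, Crygd, Cryge, Crygs, Crygn, Mip, Bfsp1, Lgsn and Grifin. Over all genes tested, 87 (0.477%) were separated in this direction in scaled counts. None of the members was separated with SC above LW, as 102 (0.559%) of all genes were. The study reported fewer genes in each direction, and the reason for this was not tested.

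**Figure D3:**
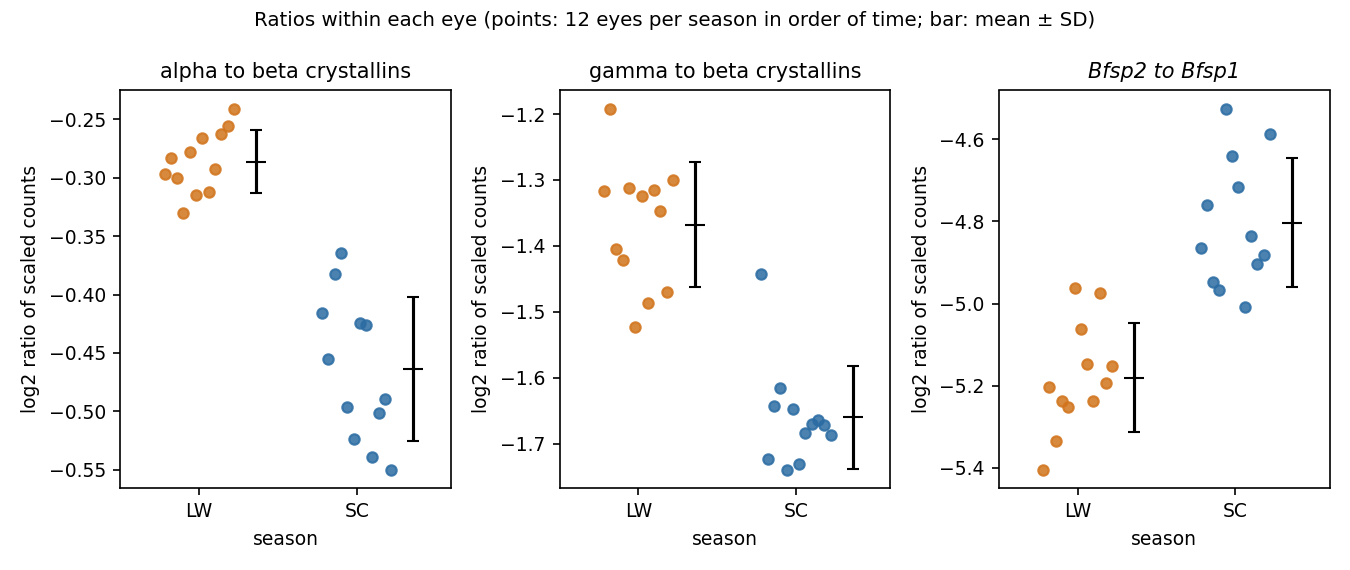
The log2 ratio of scaled counts within each eye (y axis) is plotted for the summed alpha to beta crystallins, the summed gamma to beta crystallins and Bfsp2 to Bfsp1, with the 12 LW eyes left of the 12 SC eyes in order of time and the mean ± SD beside them. The alpha to beta ratio does not overlap between LW and SC, and the gamma to beta ratio overlaps through 1 SC eye at -1.44. The Bfsp2 to Bfsp1 ratio is lower in LW eyes on average and overlaps, with 10 LW eyes below every SC eye.

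The genes of the fibre membrane and cytoskeleton differed among themselves. Mip, which encodes the lens water channel aquaporin 0, had 16105, 18110 and 19668 in the lowest, median and highest LW eye, against 14555, 15484 and 17528 in SC eyes. In 9 LW eyes it lay above every SC eye. The log2 difference was 0.19 (0.12 to 0.26, adjusted p = 0.000805 from limma). Lim2, which encodes another abundant membrane protein of fibre cells, averaged 6359 ± 324 under LW and 6280 ± 397 under SC, and Gja3, which encodes the gap junction protein connexin 46, averaged 1547 ± 92.2 under LW and 1558 ± 70.6 under SC (SD, n = 12 each). Neither was called, and their 95% intervals ran from -0.04 to 0.08 and from -0.08 to 0.06.

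Bfsp1 and Bfsp2 encode filensin and phakinin, the partners that assemble into the beaded filaments of fibre cells, and they differed in opposite directions. Some inbred mouse strains carry a deletion in Bfsp2. Whether CBA/N does is not given in the sources used here, and if it does, the Bfsp2 values and their ratio to Bfsp1 are those of an altered transcript. Bfsp1 had 14345, 15257 and 16208 in the lowest, median and highest LW eye, against 12759, 13439 and 15237 in SC eyes (log2 difference 0.15, 0.09 to 0.21, adjusted p = 0.00184 from limma). Bfsp2 had 347, 419 and 466 in LW eyes against 407, 499 and 578 in SC eyes. The ranges overlapped, with 4 LW eyes below every SC eye and 8 SC eyes above every LW eye. The log2 difference of Bfsp2 was -0.22 (-0.33 to -0.12, adjusted p = 0.00624 from limma), with LW lower at 6 of 6 times. The ratio of Bfsp2 to Bfsp1 within an eye was 2.76% under LW and 3.58% under SC, and the log2 ratio differed by -0.38 (two-sided exact permutation test within times, p = 4.29e-05, the smallest that this test can give). The ratios overlapped, with 10 LW eyes below every SC eye and 10 SC eyes above every LW eye. Leaving out any single eye kept the difference between -0.40 and -0.35. Per kilobase of transcript, Bfsp2 was at 253 under LW and 296 under SC, and Bfsp1 was at 6400 under LW and 5763 under SC.

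**Figure D4:**
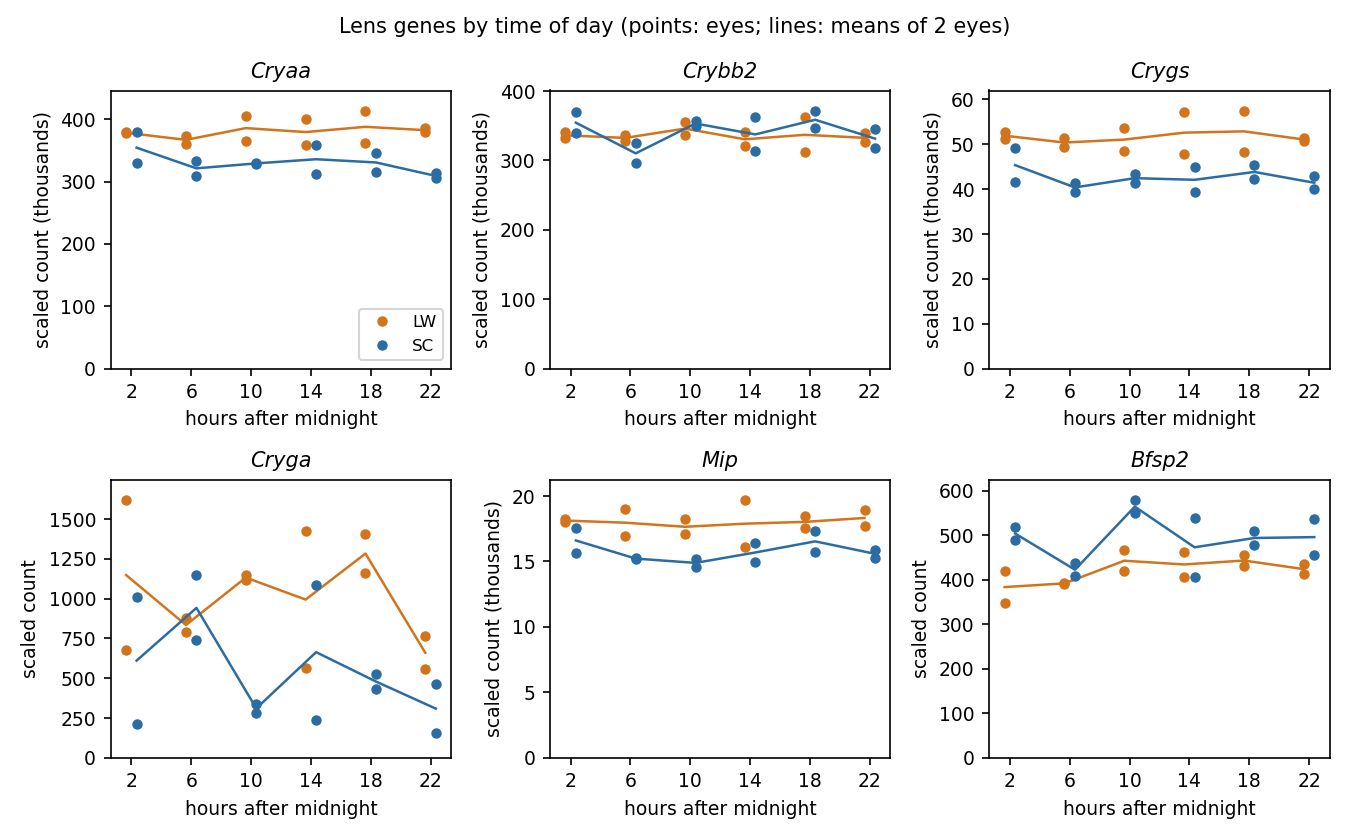
Scaled counts (y axis, divided by 1000 for Cryaa, Crybb2, Crygs and Mip) are plotted against hours after midnight for 6 lens genes, with a point for each eye and a line through the means of 2 eyes, LW in orange and SC in blue. The LW means lie above the SC means at every time for Cryaa, Crygs and Mip and below them for Bfsp2. The lines of Crybb2 cross, and for Cryga the 2 eyes lie far apart at some times.

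Of the other fibre proteins, 4 of 6 were higher under LW and the other 2 were not called. Lgsn, which encodes lengsin, a lens protein related to glutamine synthetase, had 4980, 5367 and 5617 in the lowest, median and highest LW eye, against 4110, 4521 and 5135 in SC eyes. In 9 LW eyes it lay above every SC eye, and 11 SC eyes lay below every LW eye. The log2 difference was 0.23 (0.15 to 0.30, adjusted p = 0.0003 from limma). Grifin, a galectin-related protein of fibre cells, had 2043, 2327 and 2600 in LW eyes against 1784, 1937 and 2356 in SC eyes (log2 difference 0.22, adjusted p = 0.00971). Without the eyes of 22 h it was 0.19 (adjusted p = 0.0506).

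Birc7, an inhibitor of apoptosis, and Tdrd7, a protein of RNA granules whose loss causes cataract, differed by less. Birc7 averaged 571 ± 45.1 under LW and 517 ± 31.5 under SC, a log2 difference of 0.14 (adjusted p = 0.042 from limma). Tdrd7 averaged 10738 ± 441 under LW and 10253 ± 352 under SC, a log2 difference of 0.07 (adjusted p = 0.0298; SD, n = 12 each). The call of Birc7 was lost when any of 14 eyes was left out (replicate 1 of each of the 6 LW times, replicate 1 of SC 10 h, replicate 2 of SC 2, 6 and 14 h and both replicates of SC 18 and 22 h; adjusted p between 0.0511 and 0.095). The call of Tdrd7 was lost when any of 4 was left out (replicate 2 of LW 2 and 10 h, replicate 1 of SC 10 h and replicate 2 of SC 22 h; 0.0501 to 0.0604). With a replicate block neither was called (adjusted p = 0.0782 for Birc7 and 0.107 for Tdrd7). Birc7 was also not called without the eyes of 2, 6 or 14 h (0.0897 to 0.123) or the libraries with liver transcripts (0.0706), nor Tdrd7 without the eyes of 2, 6, 10 or 22 h (0.0513 to 0.207). Dnase2b, the nuclease that clears the DNA of maturing fibres, and Lctl, a relative of lactase found in fibre cells, were not called (0.11, -0.01 to 0.23, and 0.07, 0.02 to 0.13). Leaving out LW 14 h replicate 2 brought Lctl to an adjusted p of 0.0418, and leaving out SC 2 h replicate 1 to 0.0471.

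Among the transcription factors, 1 of 6 was called over all times. It was Foxe3, a factor of the lens epithelium that keeps its cells dividing. Hsf4, Prox1, Pitx3, Sox1 and Maf were not called. Their log2 differences were -0.02 for Hsf4 (-0.10 to 0.05), 0.03 for Prox1 (-0.03 to 0.10), -0.03 for Pitx3 (-0.17 to 0.12), 0.17 for Sox1 (0.0015 to 0.33, adjusted p = 0.196 from limma) and 0.10 for Maf (-0.05 to 0.26). The eye uses several of these factors outside the lens too. Prox1, for example, is also a factor of retinal interneurons, and a whole eye does not separate these sources.

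Foxe3 varied with the time of day, and the difference between LW and SC varied with it. The LW eyes had 95.9 and 95.6 (2 h), 118 and 116 (6 h), 156 and 162 (10 h), 123 and 124 (14 h), 76.6 and 99.9 (18 h) and 152 and 152 (22 h). The SC eyes had 65.8 and 69.5 (2 h), 96.1 and 79.9 (6 h), 69.5 and 96.3 (10 h), 148 and 119 (14 h), 123 and 172 (18 h) and 91.9 and 85.3 (22 h). Both LW eyes lay above both SC eyes at 2, 6, 10 and 22 h, the eyes overlapped at 14 h, and both LW eyes lay below both SC eyes at 18 h. The log2 difference ran through 0.50 (2 h), 0.41 (6 h), 0.95 (10 h), -0.10 (14 h), -0.73 (18 h) and 0.77 (22 h). The interaction of season and time was called (adjusted p = 0.0038 from limma), as were time within LW (adjusted p = 0.0106) and time within SC (adjusted p = 0.00231). The difference over all times (0.30, 0.13 to 0.47, adjusted p = 0.0201) is a mean over these unlike times, and it was not called without the eyes of 2, 6, 10 or 22 h (0.26, 0.28, 0.17 and 0.21, adjusted p between 0.0567 and 0.221).

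Prox1, which drives the elongation of fibre cells, also had a called interaction of season and time (adjusted p = 0.0192 from limma). The LW eyes had 3078 and 2800 (2 h), 3092 and 2566 (6 h), 2437 and 2506 (10 h), 3068 and 2824 (14 h), 2667 and 3000 (18 h) and 2158 and 2308 (22 h). The SC eyes had 2764 and 2678 (2 h), 2193 and 2391 (6 h), 2593 and 2886 (10 h), 2776 and 2777 (14 h), 2580 and 2617 (18 h) and 2772 and 2625 (22 h). Both LW eyes lay above both SC eyes at 2, 6, 14 and 18 h and below them at 10 and 22 h. The log2 difference reached 0.30 at 6 h and -0.27 at 22 h. Time was called within LW (adjusted p = 0.0028) and not within SC (adjusted p = 0.116). Leaving out replicate 1 of LW 22 h, SC 6 h or SC 22 h ended the call of the interaction (adjusted p = 0.0641, 0.0545 and 0.0779), as did a replicate block (0.116).

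**Figure D5:**
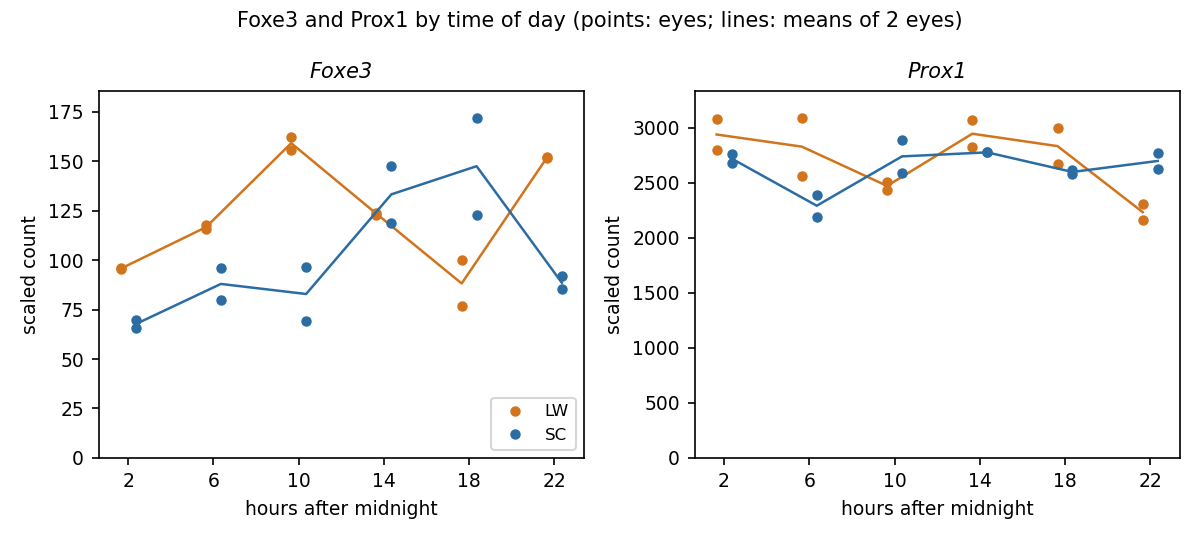
Scaled counts of Foxe3 and Prox1 (y axis) are plotted against hours after midnight, with a point for each eye and a line through the means of 2 eyes, LW in orange and SC in blue. Foxe3 is higher under LW at 2, 6, 10 and 22 h and lower at 18 h, and Prox1 is higher under LW at 6 h and lower at 22 h.

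No other member had a called interaction, so the 2 of 33 stand beside 4.98% of all genes tested. Within LW, 2 members (Foxe3 and Prox1) were called for time, against 19.0% of all genes. Within SC, 1 member (Foxe3) was, against 10.7% of all genes. No crystallin was called for time in either season by limma, the lowest adjusted p being 0.250 for Crybb2 within SC, and 0 of the 16 had an unadjusted p under 0.05 within LW and 0 within SC, beside 32.9% and 24.7% of all genes. At single times, each with 2 eyes per season, limma called 0 members at 2, 14 and 18 h, beside 3.64%, 0.176% and 1.56% of all genes, and limma voom called 0 there too. At an unadjusted p under 0.05, 4 members passed at 2 h, 8 at 14 h and 5 at 18 h, beside 18.1%, 8.56% and 14.6% of all genes, and 14 passed at 6 h, 10 at 10 h and 12 at 22 h, beside 17.3%, 11.7% and 15.3%. It called 1 at 6 h, beside 2.80%, 1 at 10 h, beside 0.510%, and 2 at 22 h, beside 2.91%. They were Prox1 at 6 h, Foxe3 at 10 h and Foxe3 and Cryaa at 22 h, where Cryaa had a log2 difference of 0.31 (adjusted p = 0.0391). Each of these calls rests on single eyes. The count was 0 at 6 h without LW replicate 1 or either SC eye of that time, 0 at 10 h without either LW eye or SC replicate 1, and 0 at 22 h without any of its 4 eyes. At 18 h, 1 member was called without SC replicate 1.

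Other genes of the lens and of other eye tissues were measured beside the members. Among 31 further lens genes, 6 were higher under LW and 2 were lower, with a median log2 difference of 0.03. As for the transcription factors, a whole eye does not separate lens RNA of these genes from that of other tissues. Of all genes tested, 4.84% were higher and 4.65% lower. Aldh1a1 (log2 difference 0.14) and Lenep (0.12) were among the higher ones, and Fgfr3, a receptor for fibroblast growth factors, was lower (-0.15). Of 7 genes with crystallin in their name that are not structural proteins of the lens, limma called none, and 2 had an unadjusted p under 0.05, as 25.0% of all genes did.

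Markers of the corneal and conjunctival epithelium, the tissue in front of the lens, were lower under LW in 10 of 12 and higher in 0, Krt4 (-0.85), Krt6a (-0.32), Krt6b (-0.22) and Elf3 (-0.20) among them. Their summed scaled count lay between 286923 and 403170 in LW eyes and between 388027 and 441108 in SC eyes. Of 8 genes of the sclera and corneal stroma 2 were higher and 0 lower, of 10 rod genes 3 were higher and 0 lower, of 10 genes of the retinal pigment epithelium 1 was higher and 4 lower, and of 8 muscle genes 0 were higher and 1 lower. These counts stand beside 4.84% higher and 4.65% lower of all genes tested. No marker was at 0 in all eyes. The summed liver markers were between 12.7 and 61.1 in LW eyes and between 25.8 and 3057 in SC eyes, with SC 6 h replicate 2 and SC 10 h replicate 2 at the top. Without these libraries 15 members were higher under LW and 1 was lower, beside 834 and 768 of all genes (883 and 847 with them). The part of these tissues in the differences of the lens genes was not tested.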

How the data were processed

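RNA-seq was done on 24 whole eyes. Per the labels and the study's methods, these were paired-end, stranded mRNA libraries, and the authors mapped their reads with HISAT2 2.0.4 to GRCm38.p6 and quantified genes with RSEM (version not given in the sources used here). The authors deposited expected counts for 19018 genes, of which 89.6% are whole numbers within 1e-06 and 43565 cells hold no number and were read as 0. The deposited values sum to between 19543401 and 28859071 per LW library (median 25057540) and between 20164885 and 28447184 per SC library (median 24449062).

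Expected counts were scaled with TMM factors (0.982 to 1.02, trimming 30% of log ratios and 5% of levels) and compared on log2(scaled expected count + 1), a scale that understates the differences of genes with few counts. The 18233 genes that reached a scaled count of 1 in 2 or more libraries were fitted with limma 3.58.1 (trend and robust) in R 4.3.3. The fit had 12 group means, which left 12 residual degrees of freedom, and all groups shared its estimate of the spread. The scripts were tested on simulated data. P-values were adjusted over all genes tested (Benjamini-Hochberg), and adjusted p under 0.05 was called. Within-eye ratios of the beaded filament genes and of the alpha crystallins were compared by exact permutation of the seasons within times. Replicate eyes differed by more than sampling noise (chi-square per degree of freedom 3.63 to 8.64), so none was counted as a duplicate.

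Positions and promoters are from RefSeq (GRCm38.p6, matched by gene ID for 33 of 33 members, with promoters for 30, not Cryab, Hsf4 and Maf; the first listed start was used). Transcript lengths, identities and shared stretches are from GENCODE M21 transcripts. Python 3.11.15 and matplotlib 3.10.9 were used for plots.

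The members, lists, tests and alternatives were chosen with earlier results of these data known. All 33 members are named, and of the other lists up to 4 genes with the smallest p. A result of 1 further lens gene is not reported here. The motifs TTTGTG and TATATA, the class ratios and the pairs of crystallins were chosen after the data had been seen. Replicate numbers were not used as pairs, since no label says that they mark a shared mouse or batch.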

Additional observations from a re-analysis of the deposited data

Results flagged for a closer look

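The difference between LW and SC varied with the time of day in 2 lens genes by a test of the interaction itself, beside 4.98% of all genes tested, a share close to the 2 of 33. For Foxe3 the adjusted p of the interaction was 0.0038 (limma), with LW above SC in both eyes at 2, 6, 10 and 22 h and below it in both at 18 h, and it stayed between 0.00239 and 0.0246 in 33 other settings. For Prox1 the adjusted p was 0.0192, with LW above SC in both eyes at 2, 6, 14 and 18 h and below it in both at 10 and 22 h, and it lay between 0.00406 and 0.116 in the same settings, in 4 of which it was not called.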

How the results depend on the processing

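The count of members higher under LW lay between 12 and 20 over all alternatives and that of members lower under LW was 1 in each. It was 17 with total count scaling, median-of-ratios scaling, TMM without the crystallins, pseudocount 10 and either other filter, 16 with limma voom, 15 without the libraries with liver transcripts, 14 to 20 when 1 eye was left out and 12 to 16 when the eyes of 1 time were. Cryaa, Cryab, Crygb, Crygc, Crygd, Cryge, Crygs, Crygn, Mip, Bfsp1, Bfsp2 and Lgsn were called in all 39 alternatives. Cryba4 was not called in 20, Birc7 in 19, Tdrd7 in 9, Foxe3 in 4, and Cryba1 and Grifin in 1 each. With a replicate block, 15 members were higher, the counts at 6, 10 and 22 h were 0 and that of the interaction was 1. The number of all genes called higher under LW also moved. It was 883 in the main fit and lay between 420 (replicate block) and 1218 (without LW 22 h replicate 1) in the alternatives. Differences between replicates 1 and 2 did not go together between LW and SC at a time (correlation over genes -0.051 to 0.016). This does not cover an order of replicates within a condition. Under LW, replicate 1 had more crystallins above their own median than replicate 2 at each time. From 2 to 22 h the counts were 15 and 14, 13 and 10, 16 and 7, 16 and 7, 16 and 11, and 12 and 10. Under SC the order was mixed (16 and 1, 2 and 0, 2 and 3, 9 and 0, 3 and 5, 1 and 3). The reason was not tested. The count at 6 h was also 0 with total count scaling, pseudocount 10 or no filter, and that at 22 h was 1 with limma voom and without the libraries with liver transcripts. When 1 eye of a time was left out, the counts were 0 to 1 at 6, 10 and 18 h and 0 at 22 h. With unscaled expected counts, 7 members were separated by the means of each time with LW above SC, and the share of all genes was not measured. The ratio of Cryab to Cryaa differed by between -0.0287 and -0.0131 when 1 eye was left out. The cause of these changes was not tested.

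Differences that changed sign were all close to 0 and not called. Over the 24 settings that left out 1 eye, Crybb3 lay between -0.0293 and 0.0193, Gja3 between -0.0264 and 0.00704 and Pitx3 between -0.0736 and 0.0204. Without the eyes of 2 h Crybb3 was at 0.00456 and Gja3 at 0.00394, without those of 6 h Lim2 was at -0.00866 and Prox1 at -0.0204, without those of 10 h Crybb3 was at 0.00444, without those of 14 h Pitx3 was at 0.0596 and without those of 18 h Pitx3 was at 0.0126 and Hsf4 at 0.0123. Without the libraries with liver transcripts Gja3 was at 0.000322. Tests of counts with edgeR and DESeq2, planned as alternatives, were not run. With 2 eyes per time and season, the 95% intervals of single times are wide, and a member that was not called at a time is not shown to be alike there.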
